A study of Mus musculus with 8 samples.

Results

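The genes described here are Bmp7, its receptors Bmpr1a and Bmpr2, the signal carriers Smad1, Smad4 and Smad5, and the target genes Id1, Id2, Id3 and Id4. They were taken as the lines of the deposited count table that carry these 10 symbols, and all 10 were found among 24539 genes. All 10 passed the filter on low counts, which kept 13459 genes for testing. Levels are CPM, a gene's counts over the scaled library size, and changes are log2 differences from edgeR's quasi-likelihood test with Benjamini-Hochberg adjustment over those 13459 genes. A gene is said to have risen or fallen where its adjusted p was under 0.05.

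The cells were nephron progenitors, the embryonic kidney cells from which nephrons form, sorted at E18.5 and measured by RNA-seq of polyadenylated RNA. All groups carried Six2GFPcre, a transgene that makes GFP and Cre recombinase under Six2 control, so Cre acts in Six2-expressing cells and the sort kept cells by their GFP. Each of the 4 groups had 2 libraries. They differ in Smo, the membrane protein that passes on the Hedgehog signal. The KO-labelled group was Smo c/c, with 2 conditional alleles and 0 wild-type alleles. The Het-labelled group was Smo c/+, and the WT-labelled group was Smo +/+. The SmoM2-labelled group was Rosa26 SmoM2/+ with Smo +/+, where SmoM2 is a constitutively active form of Smo. The labels do not say whether the 2 libraries of a group came from separate embryos. In the WT- and SmoM2-labelled groups the libraries differ in sex pattern and so do not come from the same embryo. For the KO- and Het-labelled groups nothing tells, and there the spread that p-values measure may be technical.

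BMP7 is a secreted ligand of the BMP family that nephron progenitors themselves make. It binds a complex of type I receptors, such as BMPR1A, and type II receptors, such as BMPR2. The activated type I receptor phosphorylates SMAD1 and SMAD5, which join SMAD4, enter the nucleus and switch on target genes. The Id genes are classical targets of this route: they encode small helix-loop-helix proteins without a DNA-binding region that hold E-proteins away from DNA. In the developing kidney BMP7 is known to keep progenitors alive, and its SMAD arm is known to move them towards a state that can be induced to form nephrons. A second arm through the kinase TAK1 and JNK is known to promote their proliferation.

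Library totals ran from 4422305 counts in a KO-labelled library to 10305398 in a WT-labelled library, and the KO-labelled libraries were the shallowest. The Smo level of the Het-labelled group did not follow its label. Smo stood at 13.1 and 11.1 CPM in the KO-labelled libraries and 363 and 375 CPM in the WT-labelled libraries, but 14.4 and 23.9 CPM in the Het-labelled libraries, so groups are named by their labels throughout. Smo was at 605 and 629 CPM in the SmoM2-labelled libraries. Y-linked transcripts were counted in both KO-labelled libraries and in replicate 1 of the WT- and SmoM2-labelled libraries, and Xist counts in both Het-labelled libraries and in replicate 2 of the WT- and SmoM2-labelled libraries. The sum of 12 nephron progenitor markers was 4440 to 6639 CPM, against 25.9 to 73.7 CPM for 10 ureteric bud markers, 11.9 to 37.6 CPM for 10 endothelial markers and 94.0 to 679 CPM for 10 stromal markers. By group the progenitor sum was 5596 and 5108 CPM in KO-labelled and 6639 and 6248 CPM in Het-labelled libraries. It was 4730 and 4440 CPM in WT-labelled and 4527 and 4544 CPM in SmoM2-labelled libraries. Against WT-labelled libraries 4 of the 12 markers rose and 1 fell with the KO label, and 6 rose and 0 fell with the Het label. In these comparisons 23.0% and 25.3% of all tested genes were called. The part of progenitor content in the results was not tested. In such bulk samples fewer cells of a type and less RNA per cell cannot be told apart.

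The stretch of 250 bases just before the RefSeq start site is shown for a receptor, a SMAD and an Id gene whose levels differed between groups, because SMAD complexes are known to bind GC-rich letters upstream of Id genes. Sequences are from RefSeq's promoter table (GRCm38.p6) and are written 5′ to 3′ on the plus strand, which is the strand of all 3 genes, and capitals mark matches to GGCGCC or GCCGNCGC on either strand.
Bmpr2, chr1:59764029-59764278: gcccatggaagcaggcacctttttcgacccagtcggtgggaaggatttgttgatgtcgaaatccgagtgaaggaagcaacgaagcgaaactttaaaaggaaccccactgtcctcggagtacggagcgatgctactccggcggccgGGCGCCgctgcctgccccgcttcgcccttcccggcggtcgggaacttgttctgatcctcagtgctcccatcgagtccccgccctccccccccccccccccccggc
Smad5, chr13:56702760-56703009: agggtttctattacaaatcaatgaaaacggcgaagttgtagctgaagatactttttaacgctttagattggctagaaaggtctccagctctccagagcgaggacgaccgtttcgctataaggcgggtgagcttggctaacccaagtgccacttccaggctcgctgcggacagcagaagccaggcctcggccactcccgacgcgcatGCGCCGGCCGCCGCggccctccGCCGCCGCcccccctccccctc
Id3, chr4:136143572-136143821: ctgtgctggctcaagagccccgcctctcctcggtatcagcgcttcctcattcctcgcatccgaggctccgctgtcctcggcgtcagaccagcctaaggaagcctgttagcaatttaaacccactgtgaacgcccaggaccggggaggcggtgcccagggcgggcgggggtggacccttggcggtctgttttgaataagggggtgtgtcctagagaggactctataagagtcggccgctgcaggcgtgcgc
The Bmpr2 stretch held GGCGCC 1 time, the Smad5 stretch held GCCGNCGC 3 times, with overlap between matches, and the Id3 stretch held neither. All 3 stretches were GC-rich, at 64%, 60% and 62.8%, where the median of 32536 promoters was 52.4%.

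The table gave a stretch of that length before a listed start site for 7 of the 10 genes (9 stretches in all). It gave none for Bmp7, Smad4 and Id1. Not all of these stretches lie upstream of the gene spans given below. The Bmpr1a stretch lies inside that gene's span, so its matches are within the gene and not before it. The Smad5 stretches not printed lie inside that gene's span or reach into it. GGCGCC, a palindrome, was found for 5 of the 7, namely Bmpr1a, Bmpr2, Smad5, Id2 and Id4, and stood in 9.65% of all promoters of that length. For Smad5 the match was in a stretch other than the one printed above. A gene was counted if any of its stretches matched, while the shares are per promoter and not matched for GC content. The counts and shares are therefore not a measure of enrichment. GCCGNCGC was found for 3 of the 7, Bmpr1a, Smad5 and Id4, against 6.95% of all promoters. The palindromic SMAD box GTCTAGAC, the GLI site GACCACCCA and the cAMP response element TGACGTCA were found for 0 of the 7 and stood in 0.169%, 0.218% and 1.56% of all promoters. Both strands were searched. These matches describe letters in a short window and are not binding sites.

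**Figure D1:**
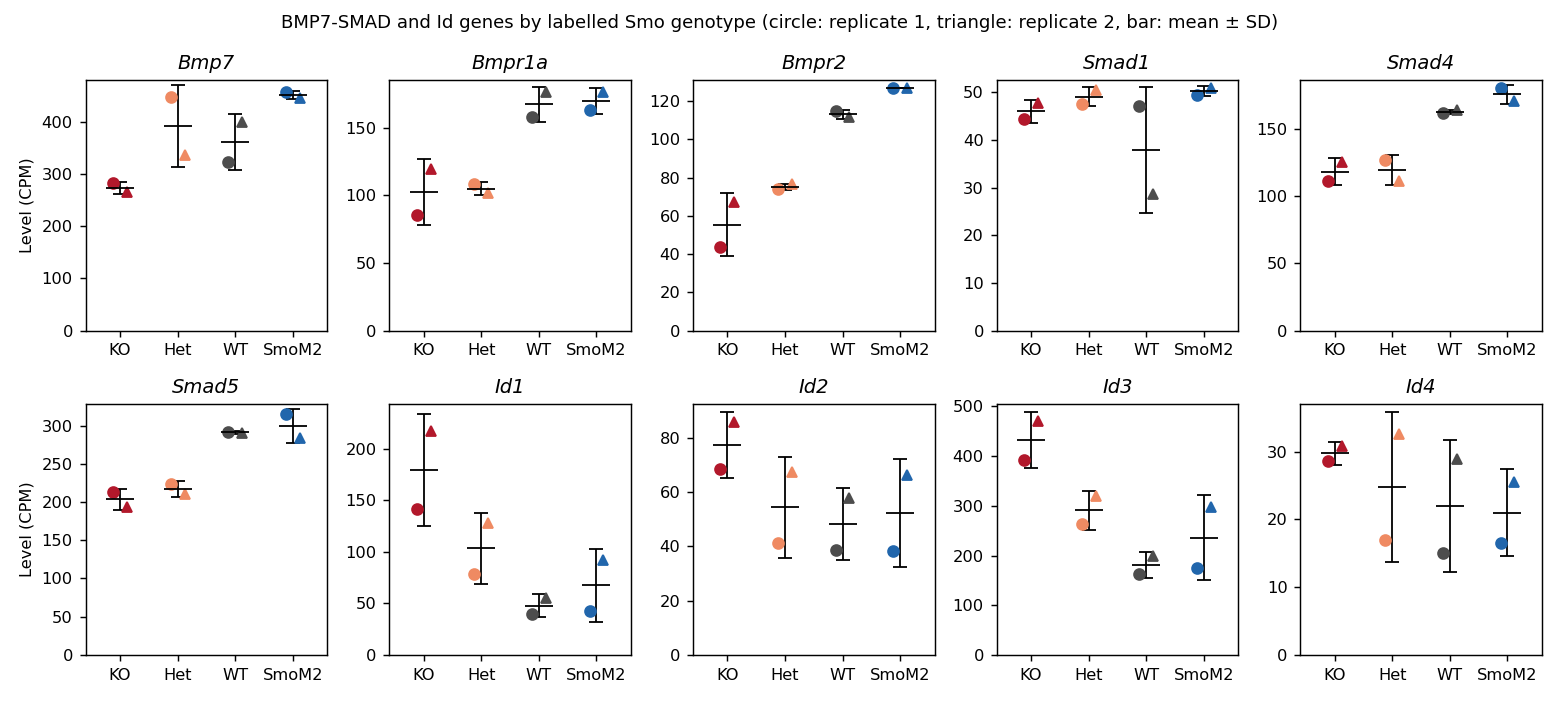
Level of each gene in CPM (vertical axes, from 0) in each library of the 4 labelled groups; circles are replicate 1, triangles replicate 2, and bars the mean ± SD of 2 libraries. Bmpr1a, Bmpr2, Smad4 and Smad5 lie lower in both KO- and both Het-labelled libraries than in any WT- or SmoM2-labelled library, Id1 and Id3 lie highest in the KO-labelled libraries, and each Id gene is higher in the triangle than in the circle of every group.

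The ligand came first in the order of roles. Bmp7 (chr2:172868012-172940321, minus strand, GRCm38.p6) was at 283 and 266 CPM in the KO-labelled libraries and at 448 and 336 CPM in the Het-labelled libraries. It was at 324 and 400 CPM in the WT-labelled libraries and at 458 and 446 CPM in SmoM2-labelled libraries. Both KO-labelled libraries were below every other library, and the Het- and WT-labelled pairs overlapped. Bmp7 fell in the KO-labelled against the SmoM2-labelled group, from 452 ± 8.18 to 274 ± 11.8 CPM (SD, n = 2), a log2 change of -0.72 (SE 0.16, adjusted p 0.00552 by edgeR). The KO-labelled level was also below the WT-labelled level of 362 ± 54.0 CPM, but the log2 difference of -0.40 (SE 0.16) did not pass the edgeR test at an adjusted p of 0.0846. DESeq2 called that difference, at -0.43 and an adjusted p of 0.0437, and edgeR called it without WT-labelled replicate 1 (-0.55, adjusted p 0.0497).

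The BMP receptors were lower in the libraries with little Smo, which were also the shallower ones. Bmpr1a, the type I receptor gene (chr14:34411061-34503336, minus strand), was at 85.2 and 120 CPM in KO-labelled and 109 and 102 CPM in the Het-labelled libraries. It stood at 158 and 177 CPM with the WT label and 163 and 176 CPM with the SmoM2 label. The first 4 libraries did not overlap with the last 4. Bmpr2, the type II receptor gene (chr1:59764279-59878081, plus strand), was at 43.6 and 67.1 CPM in KO-labelled and 74.2 and 76.4 CPM in the Het-labelled libraries. It was at 115 and 112 CPM in the WT-labelled libraries and at 127 CPM in both SmoM2-labelled libraries. Here the KO-labelled pair was the lowest, the Het-labelled pair stood between, and no groups overlapped.

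Of the SMAD genes, those for SMAD4 and SMAD5 followed the receptors and Smad1 did not. Smad5 (chr13:56703010-56742378, plus strand) was at 213 and 194 CPM in KO-labelled, 224 and 210 CPM in the Het-labelled, 292 and 290 CPM in the WT-labelled and 315 and 283 CPM in SmoM2-labelled libraries. Smad4, which encodes the partner shared by all receptor-activated SMADs (chr18:73634790-73703791, minus strand), was at 111 and 125 CPM in KO-labelled and 127 and 112 CPM in Het-labelled libraries. It was at 162 and 164 CPM in the WT-labelled and 181 and 171 CPM in the SmoM2-labelled libraries. For both genes the KO- and Het-labelled pairs overlapped each other and lay below all WT- and SmoM2-labelled libraries. Smad1 (chr8:79338395-79399428, minus strand) was between 44.3 and 51.0 CPM in 7 of 8 libraries, and 28.5 CPM in replicate 2 of the WT-labelled group. No comparison over all 8 libraries called Smad1. Without WT-labelled replicate 1 it was called higher in the KO- (log2 0.68, adjusted p 0.0225) and Het-labelled group (0.78, adjusted p 0.0105) than in the remaining, low WT-labelled library.

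Of the Id genes, Id1 and Id3 ran the other way in the libraries with little Smo. Id1 (chr2:152736251-152737410, plus strand) was at 141 and 218 CPM in KO-labelled, 78.9 and 128 CPM in the Het-labelled, 39.7 and 55.4 CPM in the WT-labelled and 42.4 and 92.5 CPM in SmoM2-labelled libraries. Both KO-labelled libraries were above every other library, both Het-labelled libraries were above both WT-labelled ones, and the SmoM2-labelled pair reached from the WT range into the Het range. Id3 (chr4:136143822-136145392, plus strand) was at 392 and 472 CPM in KO-labelled, 264 and 319 CPM in the Het-labelled, 163 and 199 CPM in the WT-labelled and 175 and 297 CPM in SmoM2-labelled libraries. Its order of groups was that of Id1, with the same overlaps.

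Id2 (chr12:25093799-25096092, minus strand) was at 68.6 and 86.0 CPM in KO-labelled, 41.3 and 67.4 CPM in the Het-labelled, 38.8 and 57.7 CPM in the WT-labelled and 38.2 and 66.5 CPM in SmoM2-labelled libraries. The KO-labelled pair was again above all others, by a narrow margin, and the other groups overlapped. Id4 (chr13:48261116-48266028, plus strand) was at 28.6 and 30.9 CPM in KO-labelled, 17.0 and 32.6 CPM in the Het-labelled, 15.1 and 28.9 CPM in the WT-labelled and 16.5 and 25.5 CPM in SmoM2-labelled libraries. Its levels overlapped between the KO-labelled group and both the Het- and WT-labelled groups. The strand setting of the counts is not given in the sources used here, and Id4 overlaps the antisense gene A330033J07Rik (155 counts over all libraries, against 1399 for Id4) while Bmpr1a overlaps the antisense gene Gm17110, so reads of these partners cannot be told apart.

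Within every group each of the 4 Id genes was higher in replicate 2 than in replicate 1, which none of the other 6 genes was. Over all tested genes, 7.06% were higher in replicate 2 in all 4 groups and 7.33% in replicate 1, as Smad5 was. The summed level of the 4 Id genes was 631 and 806 CPM in KO-labelled, 401 and 547 CPM in the Het-labelled, 257 and 341 CPM in the WT-labelled and 272 and 481 CPM in SmoM2-labelled libraries. The gap between replicates was thus widest in the SmoM2-labelled group, where Id1 differed 2.18-fold between the libraries. In the WT- and SmoM2-labelled groups replicate 2 is also the library with Xist counts, but the KO-labelled pair both had Y-linked and the Het-labelled pair both had Xist counts. The stress score, a mean over genes known to respond to tissue dissociation, was also higher in replicate 2 of every group, with its widest gap in the SmoM2-labelled group (6.44 and 6.94), and so was the summed level of early nephron markers (487 and 665 CPM there). The part of sex, stress genes and early nephron cells in the gap was not tested.

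Levels of different genes can be set side by side only per transcript length, as the authors' deposited RPKM. In the WT-labelled libraries the order was Id3 at 155 RPKM, Bmp7 at 80.6, Id1 at 41.5, Smad4 at 39.9, Smad5 at 33.3, Id2 at 30.9, Bmpr1a at 25.0, Id4 at 10.7, Smad1 at 10.3 and Bmpr2 at 8.37 RPKM. The neighbours Id1 and Smad4 did not differ beyond their spread of 7.79 and 1.55 RPKM (SD, n = 2), nor did Id4 and Smad1 with SDs of 4.29 and 4.03 RPKM. The same held for Smad5 and Id2 (SDs of 1.75 and 7.16 RPKM) and for Id2 and Bmpr1a (7.16 and 0.79 RPKM). It also held for Smad1 and Bmpr2 (4.03 and 0.57 RPKM). In the KO-labelled libraries Id1, at 164 RPKM, stood above Bmp7, at 63.7 RPKM, and Id3 reached 387 RPKM.

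Setting KO-labelled beside WT-labelled libraries asks what differed when progenitors lacked Smo. Id1 and Id3 rose, and the genes for both receptors and for SMAD4 and SMAD5 fell. Id1 rose from 47.6 ± 11.1 to 179 ± 54.0 CPM (SD, n = 2), a log2 change of 1.92 (SE 0.35, adjusted p 0.00337), or 3.78-fold. Id3 rose from 181 ± 25.4 to 432 ± 56.0 CPM, a log2 change of 1.25 (SE 0.22, adjusted p 0.00284), or 2.39-fold. Bmpr2 fell from 113 ± 2.34 to 55.3 ± 16.6 CPM, a log2 change of -1.03 (SE 0.17, adjusted p 0.00218).

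Smaller falls were found for the other receptor gene and the SMAD genes. Bmpr1a fell from 167 ± 13.2 to 102 ± 24.2 CPM, a log2 change of -0.71 (SE 0.16, adjusted p 0.0091). Smad5 fell from 291 ± 1.54 to 204 ± 13.3 CPM (log2 -0.52, SE 0.12, adjusted p 0.0103), and Smad4 from 163 ± 1.40 to 118 ± 10.1 CPM (log2 -0.46, SE 0.12, adjusted p 0.0206). The log2 differences of Id2 (0.68, adjusted p 0.106), Id4 (0.44, adjusted p 0.382) and Smad1 (0.28, adjusted p 0.343) did not pass. Id2 was called with no filter (0.66, adjusted p 0.000417) and with only these groups fitted (0.65, adjusted p 0.0290). In all, 6 of the 10 genes were called (2 higher, 4 lower), where 23.0% of all tested genes were called, 11.6% higher and 11.4% lower. The KO and WT ranges did not overlap for 8 of the 10, against 62.0% of all genes. The median log2 difference of the 10 was -0.06 and that of all tested genes 0.03.

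The KO-labelled pair had the Y-linked pattern. Against the WT-labelled library with Y-linked counts alone, whose spread was taken from the other groups, Id1 differed by 2.14, Id3 by 1.37 and Bmpr2 by -1.08 on the log2 scale, with adjusted p of 0.00649, 0.00597 and 0.00524 by edgeR. Smad4 no longer passed (-0.49, adjusted p 0.0587), nor did it without KO-labelled replicate 1 (adjusted p 0.119) or WT-labelled replicate 1 (adjusted p 0.0605). Bmpr1a was lost without KO-labelled replicate 1 (-0.49, adjusted p 0.0652) and Smad5 without KO-labelled replicate 2 (adjusted p 0.0501).

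**Figure D2:**
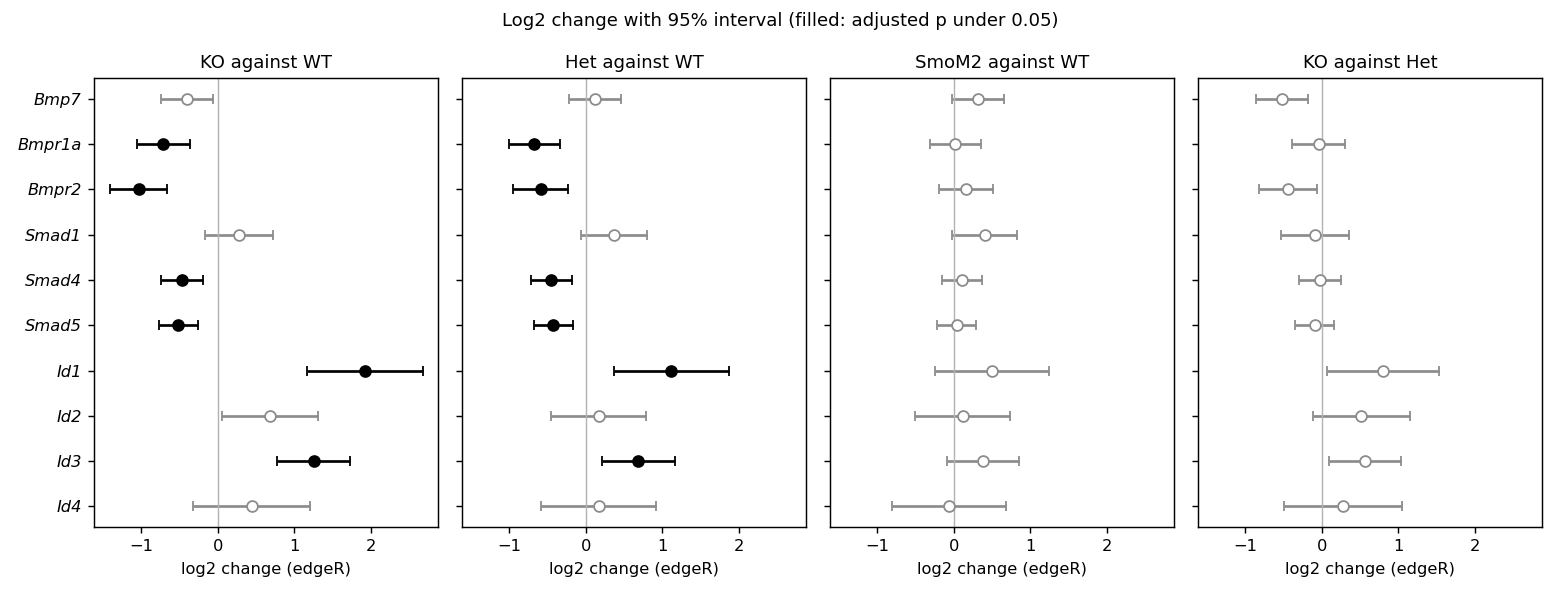
Log2 change of each gene (horizontal axis) in 4 comparisons; points are edgeR estimates, bars their 95% confidence intervals, and filled points have an adjusted p under 0.05. The same 6 genes are filled in the KO and Het panels, with Id1 at 1.92 and 1.12, and no gene is filled in the SmoM2 against WT and KO against Het panels.

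The Het-labelled libraries, which also had little Smo, showed the same 6 genes called in the same directions against the WT-labelled libraries, where 25.3% of all genes were called (13.1% higher, 12.2% lower). The ranges did not overlap for 7 of the 10, against 66.9% of all genes. The 2 comparisons share the WT-labelled libraries, so their values are given side by side and not as separate support. Id1 rose to 103 ± 34.7 CPM, a log2 change of 1.12 (SE 0.34, adjusted p 0.0336), and Id3 to 291 ± 39.4 CPM, a log2 change of 0.69 (SE 0.22, adjusted p 0.0381). Bmpr1a fell to 105 ± 4.93 CPM (log2 -0.67, SE 0.15, adjusted p 0.00969) and Bmpr2 to 75.3 ± 1.59 CPM (log2 -0.59, SE 0.16, adjusted p 0.0232). Smad4 fell to 119 ± 11.0 CPM (log2 -0.45, adjusted p 0.0208) and Smad5 to 217 ± 10.1 CPM (log2 -0.42, adjusted p 0.0209).

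These calls rested on few libraries. Without Het-labelled replicate 2 each of the 6 lost its call. Bmpr2, Smad5 and Id3 also lost theirs without Het-labelled replicate 1. Bmpr2, Smad4, Smad5 and Id3 did so without either WT-labelled library. Against the WT-labelled library with Xist counts alone, the sex pattern of both Het-labelled libraries, Bmpr1a kept its call (log2 -0.75). Bmpr2, Smad4, Smad5, Id1 (0.89) and Id3 (0.55) lost theirs in that fit. Smad1, which is not among the 6, gained a call there (0.78). DESeq2 called 5 of the 6, all but Id1 (adjusted p 0.107).

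Between KO- and Het-labelled libraries 0 of the 10 genes passed edgeR's test, where 9.43% of all genes were called (4.33% higher, 5.10% lower). The ranges did not overlap for 5 of the 10, against 56.9% of all genes. At an unadjusted p under 0.05 there were 4 genes, Bmp7, Bmpr2, Id1 and Id3, and DESeq2 called 1, Bmp7 (adjusted p 0.0107). Id1 was higher in the KO-labelled group by 0.80 on the log2 scale, with a 95% interval of 0.06 to 1.54 (adjusted p 0.150), and Id3 by 0.57, with an interval of 0.10 to 1.04 (adjusted p 0.115). Bmp7 was lower, at -0.52 with an interval of -0.86 to -0.18 (adjusted p 0.0595). Leaving out either WT-labelled library, which only lends its spread here, brought Bmp7 to an adjusted p of 0.0390 and 0.0388. Leaving out KO-labelled replicate 2 did so for Bmpr2 (-0.79, adjusted p 0.0329) and SmoM2-labelled replicate 2 for Id3 (0.56, adjusted p 0.0495). The differences of Bmpr1a (-0.04, interval -0.38 to 0.31), Smad4 (-0.02, interval -0.29 to 0.26) and Smad5 (-0.09, interval -0.35 to 0.16) were small with intervals on both sides of 0. Sex and label cannot be told apart here, since the KO-labelled pair had Y-linked and the Het-labelled pair Xist counts.

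In the SmoM2-labelled libraries, where active Smo was added, 0 of the 10 genes were called against the WT-labelled libraries by edgeR, 0 had an unadjusted p under 0.05 and 0 were called by DESeq2. Few genes were called at all, 0.223% of those tested (0.156% higher, 0.0669% lower). The ranges did not overlap for 4 of the 10 genes (Bmp7, Bmpr2, Smad1 and Smad4), against 35.8% of all genes. Of the receptor and SMAD genes, Bmpr1a differed by 0.02 on the log2 scale (95% interval -0.31 to 0.35), Smad5 by 0.04 (interval -0.21 to 0.29), Smad4 by 0.11 (interval -0.15 to 0.37), Bmpr2 by 0.16 (interval -0.19 to 0.52) and Smad1 by 0.40 (interval -0.02 to 0.83). Bmp7 was at 452 CPM against 362 CPM, a log2 difference of 0.32 (interval -0.02 to 0.66, adjusted p 0.694). For Id1 the interval was wide, from -0.24 to 1.25 around 0.50, so a rise as large as that in the Het-labelled group lies within it. The same holds for Id3, at 0.38 with an interval of -0.09 to 0.85. Id2 was at 0.12 (interval -0.50 to 0.74) and Id4 at -0.06 (interval -0.81 to 0.68).

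KO-labelled against SmoM2-labelled is the step from the lowest to the highest Smo level, and it shares the KO-labelled libraries with the first comparison. It called 7 of the 10 genes, where 32.5% of all genes were called (16.5% higher, 16.0% lower): the 6 above and Bmp7. Bmpr2 differed by -1.19 (SE 0.17, adjusted p 0.00055), Bmpr1a by -0.73 (adjusted p 0.00522), Smad4 by -0.57 (adjusted p 0.00534) and Smad5 by -0.56 (adjusted p 0.00474). Id1 was higher by 1.42 (SE 0.34, adjusted p 0.00929) and Id3 by 0.87 (SE 0.22, adjusted p 0.0109). The ranges did not overlap for all 10 genes, against 67.1% of all genes. Neither Id gene was called without KO-labelled replicate 2 (Id1 1.06, adjusted p 0.0779; Id3 0.73, adjusted p 0.0708) or without SmoM2-labelled replicate 1 (Id1 0.91, adjusted p 0.0640; Id3 0.50, adjusted p 0.0981), and Id2 was called without SmoM2-labelled replicate 2 (0.97, adjusted p 0.0419). In a test of any difference among the 4 groups the same 7 genes were called, against 41.0% of all genes, and Smad1, Id2 and Id4 were not.

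The rest of the BMP route was read from 87 genes listed by role, of which 70 were tested. Between KO- and WT-labelled libraries 8 rose and 19 fell, with a median log2 difference of -0.11, and in the Het- against WT-labelled comparison 9 rose and 19 fell, with a median of -0.22. Against the 23.0% and 25.3% of all genes called in these comparisons, this is 27 and 28 of 70. In the SmoM2- against WT-labelled comparison 1 gene of 70 was called: Rgma, a BMP co-receptor gene, rose from 47.1 to 91.9 CPM, a log2 change of 0.96 (SE 0.15, adjusted p 0.0423). That call was lost without either KO-labelled library (adjusted p 0.0579 and 0.0582), either WT-labelled library (0.115 and 0.0657) or SmoM2-labelled replicate 1 (0.154).

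Of the 27 genes that rose or fell with the KO label, 10 were called whichever library was left out: Acvr1, Acvr2b, Bambi, Bmp4, Bmper, Ctdsp2, Gdf11, Hey1, Ski and Smad9. Of these, Acvr1, Bmp4 and Bmper were called under every alternative run. The other 17 lost their call without at least 1 library, 14 of them without KO-labelled replicate 1 and 11 without WT-labelled replicate 1. Without the former Acvr2a was at -0.60 (adjusted p 0.0621), Nog at -1.76 (0.0657), Skil at -0.85 (0.0551), Fstl1 at -0.61 (0.0511), Twsg1 at -0.33 (0.162), Kcp at 0.47 (0.174), Smad3 at -0.43 (0.160) and Tcf12 at -0.34 (0.166). Bmp2 was at 0.80 (0.203) without KO-labelled replicate 2. The number called was 13 of 70 if KO-labelled replicate 1 was left out and 17 of 70 if WT-labelled replicate 1 was, and it went from 28 to 16 and 11 without Het-labelled replicate 1 or 2 in Het- against WT-labelled libraries. With a dissociation stress score as a term in the model, 5 and 1 genes were called in these comparisons.

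**Figure D3:**
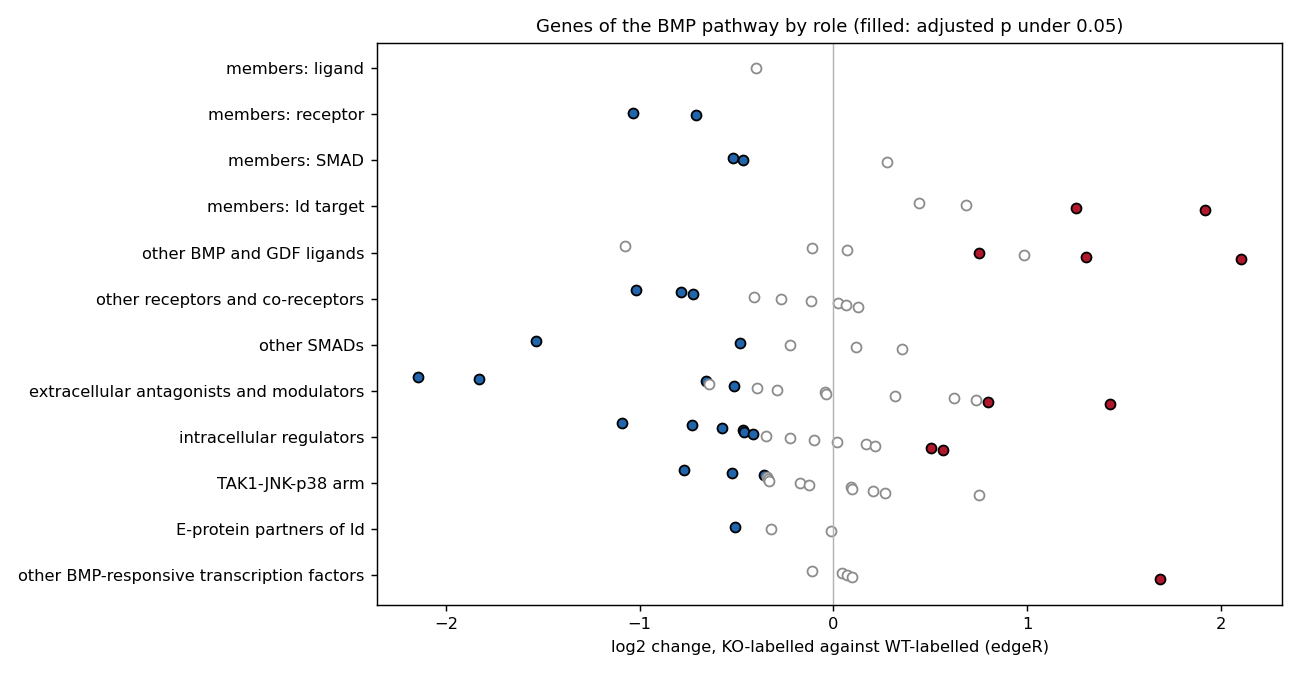
Log2 change in KO- against WT-labelled libraries (horizontal axis) of each tested gene of the BMP route, one row per role; filled points have an adjusted p under 0.05, red for higher and blue for lower, and small vertical shifts only keep points apart. Red points are seen among ligands, antagonists, intracellular regulators and targets, up to Bmp4 at 2.11, and all filled receptors, SMADs, TAK1-JNK-p38 genes and E-proteins are blue.

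Of 7 other BMP and GDF ligand genes tested, 3 rose and 0 fell in the KO- against WT-labelled libraries. Beside this and the following role lists, 11.6% of all tested genes rose and 11.4% fell in that comparison. Bmp4, a ligand of the same receptors, was at 88.8 and 79.0 CPM in the KO-labelled libraries and at 24.1 and 14.7 CPM in WT-labelled ones. Its log2 change was 2.11 (SE 0.24, adjusted p 0.000304), and it was also higher in the KO- than in the Het-labelled libraries by 1.45 (SE 0.24, adjusted p 0.00744), a call lost without Het-labelled replicate 1 (1.21, adjusted p 0.0927). Bmp2 rose by 1.31 (SE 0.36, adjusted p 0.024) and Gdf11 by 0.75 (adjusted p 0.00424).

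Of 9 other receptor and co-receptor genes, 3 fell and 0 rose: Acvr1, the gene of another type I receptor, from 49.2 to 24.2 CPM (log2 -1.02, SE 0.17, adjusted p 0.00243), and the type II receptor genes Acvr2a (-0.72, adjusted p 0.0083) and Acvr2b (-0.79, adjusted p 0.00197). Of 5 other SMAD genes, 2 fell. Smad9, the third BMP-activated SMAD gene, was at 9.74 and 9.58 CPM in KO-labelled and 21.4 and 34.7 CPM in WT-labelled libraries (log2 -1.54, SE 0.29, adjusted p 0.00459), and Smad3, which serves TGF-beta, fell by 0.48. The genes of the inhibitory SMADs, themselves known BMP targets, were not called: Smad6 was at 99.0 against 77.6 CPM (adjusted p 0.092) and Smad7 at 117 against 108 CPM (adjusted p 0.546).

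Of 14 genes for extracellular antagonists and modulators, 2 rose and 4 fell. Bmper, which encodes a BMP-binding secreted protein, was at 37.4 and 65.7 CPM in KO-labelled, 69.4 and 72.5 CPM in the Het-labelled, 252 and 204 CPM in the WT-labelled and 136 and 185 CPM in the SmoM2-labelled pair. The log2 change of Bmper in KO- against WT-labelled libraries was -2.14 (SE 0.23, adjusted p 0.000253), and the low-Smo libraries lay below all others. The antagonist gene Nog was low everywhere and fell from 6.68 to 1.87 CPM (log2 -1.83, SE 0.40, adjusted p 0.00892), Fstl1 by 0.66 and Twsg1 by 0.51. The genes that rose were Bambi, which encodes a decoy receptor and is a known BMP target (10.1 to 27.0 CPM, log2 1.43, adjusted p 0.00305), and Kcp, which encodes a secreted enhancer of BMP signalling (log2 0.80, adjusted p 0.0182).

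Of 14 genes for intracellular regulators, 2 rose and 6 fell, and genes of known brakes on SMAD signalling were found in both directions. Those that rose were Tob2 (0.57, adjusted p 0.0234, lost without KO-labelled replicate 2 and without either WT-labelled library at 0.0514 to 0.132) and Stub1 (0.51, adjusted p 0.0329, lost without any library but KO-labelled replicate 2 and WT-labelled replicate 2, at 0.0508 to 0.241). Those that fell include Skil (-1.09, adjusted p 0.00512) and Ski (-0.57, adjusted p 0.00463), which encode repressors. They also include Smurf1 (-0.41, adjusted p 0.0343), a ubiquitin ligase gene, and the phosphatase genes Ctdsp2 (-0.73, adjusted p 0.0019) and Ppm1a (-0.47, adjusted p 0.0206). The Smurf1 call was lost without either KO-labelled library (-0.43 and -0.41) and without WT-labelled replicate 1 (-0.34). The Ppm1a call was lost without KO-labelled replicate 1 and without WT-labelled replicate 2 (-0.40 each). Of 13 genes of the TAK1-JNK-p38 arm, 3 fell and 0 rose (Tab2, Tab3 and Map2k7), a share close to the 23.0% of all tested genes called. The Tab2 call was lost when any KO-, Het- or WT-labelled library was left out (-0.41 to -0.31). Tab3 was lost without KO-labelled replicate 1 (-0.50) and WT-labelled replicate 1 (-0.72). Map2k7 was lost without KO-labelled replicate 2 (-0.46) and WT-labelled replicate 1 (-0.47). In the Het- against WT-labelled comparison 5 of the 13 fell, among them Map3k7, the gene of TAK1 (-0.52, adjusted p 0.0211), and Jun rose by 1.25 (adjusted p 0.0128). Both calls were lost without Het-labelled replicate 2 (Map3k7 -0.38, adjusted p 0.182; Jun 1.09, adjusted p 0.0772) and without WT-labelled replicate 1 (-0.43, adjusted p 0.107; 1.08, adjusted p 0.0591).

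Of 3 genes for E-proteins, the partners that Id proteins bind, Tcf12 fell from 219 to 154 CPM (log2 -0.51, adjusted p 0.0254). Tcf3 differed by -0.01 and Tcf4 by -0.32 (adjusted p 0.0719). Of 5 other transcription factor genes that BMPs are known to switch on, only Hey1 was called in this comparison: it rose from 30.3 to 97.2 CPM (log2 1.69, SE 0.24, adjusted p 0.00103). Hey1 is a target of Notch signalling too.

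Other measures moved with these groups. The stress score was the mean log2 CPM of 14 genes that tissue dissociation is known to switch on. Most are immediate-early genes, while Hspa1a and Hspa1b are heat-shock genes. The score was 6.75 and 7.07 in the KO-labelled, 7.40 and 7.45 in the Het-labelled, 6.26 and 6.34 in the WT-labelled and 6.44 and 6.94 in the SmoM2-labelled libraries. Of the 14 genes 8 rose in the KO- and 9 in the Het- against WT-labelled comparison, where 11.6% and 13.1% of all tested genes rose. The score was highest in the Het-labelled libraries and the Id sum in the KO-labelled ones, and within every group both were higher in replicate 2. With the score as a term in the model, Bmpr1a (-1.07) and Bmpr2 (-1.32) were still called in KO- against WT-labelled libraries, while Id1 (0.48, adjusted p 0.413) and Id3 (0.40, adjusted p 0.350) were not. In Het- against WT-labelled libraries 0 of the 10 genes were called with that term. The score moved with the labels, and their parts cannot be told apart.

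The summed level of 10 early nephron markers was 1398 and 1722 CPM in KO-labelled, 528 and 795 CPM in the Het-labelled, 521 and 723 CPM in the WT-labelled and 487 and 665 CPM in SmoM2-labelled libraries, and no marker was at 0 except Pou3f3 in Het-labelled replicate 1. Of these markers 8 of 10 rose in KO- against WT-labelled libraries and 2 of 10 in Het- against WT-labelled libraries, where 11.6% and 13.1% of all tested genes rose. They moved with the Id genes in the KO-labelled group, and their part in the Id result was not tested. The 10 markers of endothelial cells, another type known for high Id1 and Id3, summed to 37.6 and 20.7 CPM in KO-labelled, 33.0 and 31.1 CPM in Het-labelled, 17.2 and 18.7 CPM in WT-labelled and 11.9 and 15.6 CPM in SmoM2-labelled libraries. Of these, 2 passed the filter and 1 was called: Plvap rose from 14.4 CPM with the WT label to 24.8 CPM in the KO- (adjusted p 0.0496) and 29.4 CPM in the Het-labelled group (adjusted p 0.0129). The defining genes Pecam1 (at most 3 counts in any library), Cdh5 (at most 9) and Kdr (at most 9) were at or near 0. The 10 stromal markers summed to 639 and 94.0 CPM in the KO-labelled libraries, 154 and 332 CPM in the Het-labelled, 510 and 335 CPM in the WT-labelled and 679 and 548 CPM in the SmoM2-labelled libraries. Of 9 tested, 1 rose (Acta2) and 1 fell in KO- against WT-labelled libraries, close to the shares of all tested genes (11.6% higher, 11.4% lower). The one that fell, Foxd1, was at 12.8 and 3.70 CPM in KO-labelled, 22.5 and 14.6 CPM in Het-labelled and 197 and 171 CPM in WT-labelled libraries, and it fell in the Het-labelled group too.

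Erythroid markers, 6 of which were in the table, summed to 45.2 and 13.7 CPM in KO-labelled and 24.9 and 19.9 CPM in Het-labelled libraries, against 4.10 and 5.23 CPM in WT-labelled and 7.87 and 2.77 CPM in SmoM2-labelled libraries. Of 4 tested, 3 rose in KO- and 2 in Het- against WT-labelled libraries, where 11.6% and 13.1% of all tested genes rose. Hba-a1 and Hba-a2 had the same counts in every library, so 1 signal entered these sums and counts as 2 genes. Low in absolute level, they divided the libraries as the receptor genes did. The part of stromal, endothelial and erythroid RNA in the results was not tested.

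**Figure D4:**
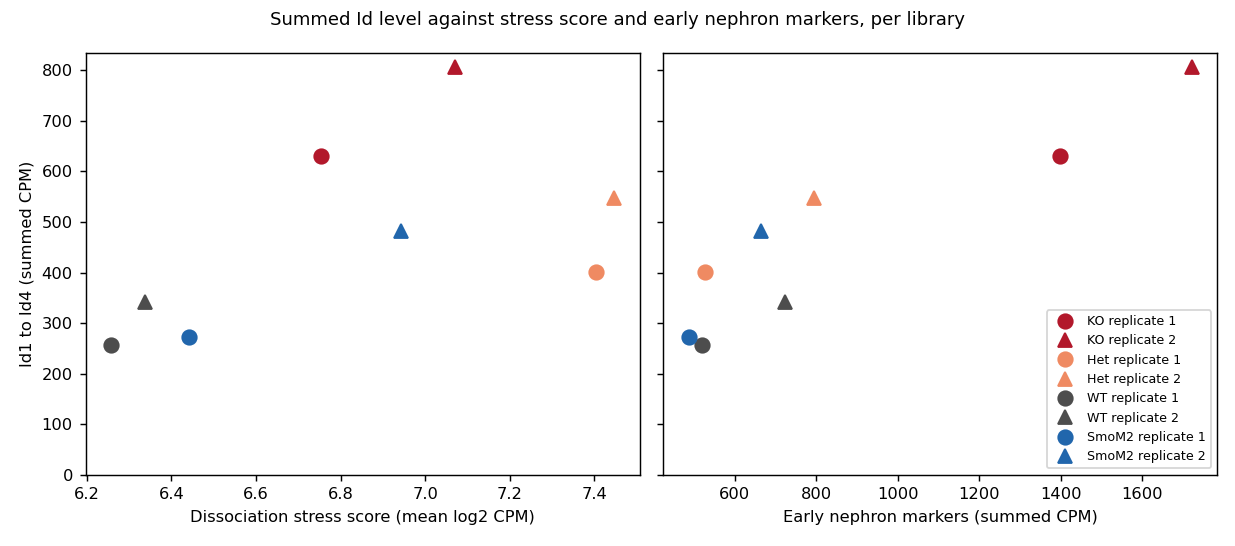
Summed level of Id1 to Id4 in CPM (vertical axis) against the stress score (left, mean log2 CPM) and against the summed CPM of 10 early nephron markers (right), with a point for each of 8 libraries. The KO-labelled libraries (631 and 806 CPM of Id genes) stand highest in both panels and farthest right for early nephron markers (1398 and 1722 CPM), while the Het-labelled libraries have the highest stress scores.

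Gene length separated the genes that rose from those that fell. In the authors' deposited lengths, Id1 has 934 bases and Id3 953, while Bmpr2 has 11087, Smad5 7175, Bmpr1a 5481 and Smad4 3341. With the trends of log2 change over length and GC content removed, Id1 (1.58), Id3 (0.90), Bmpr1a (-0.46) and Smad4 (-0.50) were still called in KO- against WT-labelled libraries. Bmpr2 (-0.45, adjusted p 0.0619) and Smad5 (-0.13, adjusted p 0.486) were not. In Het- against WT-labelled libraries Bmpr1a and Smad4 were still called, and Id1 (0.98, adjusted p 0.0701) and Id3 (0.53, adjusted p 0.105) were not. In KO- against SmoM2-labelled libraries Smad5 (-0.11, adjusted p 0.525) and Id3 (0.49, adjusted p 0.118) lost their calls.

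The genes whose log2 CPM over the 8 libraries was most like that of each gene are given as a description, since the libraries share groups, depth and the differences above. For Id1 they were Pdpn (Pearson r = 0.98), Tes (0.98) and Pja1 (0.97), and for Id3 they were Tes (0.98), Pdpn (0.97) and Mrpl52 (0.97). For Id2 they were Aldh1a2 (0.98), Khdrbs3 (0.96) and Ifi27 (0.95), and for Id4 Idh3b, Mettl2 and Gga2 (each 0.93). For Bmp7 they were Sdc3 (0.99), Ap2a1 (0.98) and Nrp1 (0.98). Among the 10 genes, Id1 and Id3 ran together most closely (r = 0.99), followed by Bmpr1a with Smad4 (0.96), Bmpr1a with Bmpr2 (0.94), Smad4 with Smad5 (0.94) and Id2 with Id4 (0.94). Smad5 and Id1 ran in opposite directions (r = -0.90).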

How the data were processed

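RNA-seq libraries of sorted mouse nephron progenitors, 2 in each of 4 labelled groups, were read from a single table of 24539 genes. Per the file headers, the authors deposited raw read counts per gene, with RPKM values and a gene length beside them. STAR, featureCounts, Subread and the build mm10 are named in the submitters' processing notes. The annotation and strand setting are not given in the sources used here. The listed counts made up 81.1% to 83.3% of the library totals that the deposited RPKM imply.

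The test was edgeR's (4.0.16, R 4.3.3), after filterByExpr and TMM scaling, with a quasi-likelihood fit of a mean per group over all 8 libraries (4 residual degrees of freedom, biological coefficient of variation 13.5%). All tests were two-sided. P-values were adjusted over 13459 genes with a threshold of 0.05. Log2 CPM used a prior count of 2. With 2 libraries against 2, an exact permutation test cannot go below p = 0.333 and none is reported. The code was tested on simulated data. Alternatives were DESeq2 1.42.0, other scalings and filters, single libraries left out, a replicate block, the stress score as a term, and removal of length and GC trends; fits without both Het-labelled libraries and of the block on the WT- and SmoM2-labelled libraries alone were chosen after seeing the data.

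The genes, role lists and marker lists were chosen with earlier results of these data known. All 10 genes are named, any gene of the role lists may be named beside its list's counts, and the 3 genes most like Bmp7 and each Id gene are those with the highest Pearson r among genes with an average log2 CPM of at least 3. Gene positions and promoter sequences are RefSeq's and GENCODE's on GRCm38.p6.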

Additional observations from a re-analysis of the deposited data

How the results depend on the processing

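With 2 libraries a group, the calls in the Het- against WT-labelled and KO- against Het-labelled comparisons depended most on the choices made. The number of the 10 genes called was 4 to 7 with each library left out in turn in KO- against WT-labelled libraries, 0 to 6 in Het- against WT-labelled, 0 to 0 in SmoM2- against WT-labelled, 0 to 1 in KO- against Het-labelled and 5 to 8 in KO- against SmoM2-labelled libraries. With the stress score as a term these counts were 2 in KO- against WT-labelled (main 6), 0 in Het- against WT-labelled (main 6) and 2 in KO- against Het-labelled libraries (main 0). With length and GC trends removed the Het- against WT-labelled count was 2. With no filter it was 1 in SmoM2- against WT-labelled (main 0) and 5 in KO- against Het-labelled libraries. The KO- against Het-labelled count was 1 with DESeq2 size factors, 1 with DESeq2's test, 1 with a minimum of 10 counts in every library and 1 with only those groups fitted. Whether the replicate numbers pair any samples is not known. The deviations of same-numbered libraries correlated at 0.39 over genes between the WT- and SmoM2-labelled groups and from -0.06 to 0.10 elsewhere. WT- and SmoM2-labelled libraries also matched in sex pattern by number. Their log2 CPM correlated at 0.982 for replicate 1 and 0.984 for replicate 2. Within the WT-labelled pair the value was 0.980, and within the SmoM2-labelled pair 0.983. With a replicate block the counts were 7, 6, 0, 3 and 8 in the same order of comparisons, 0 with the block on the WT- and SmoM2-labelled libraries alone, and 8 for any difference among the groups; the block also called Id2 in KO- against WT-labelled libraries (0.70, adjusted p 0.00526). The cause of these shifts was not tested.

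All reversed signs belonged to differences that were not called, except Id1, Id3 and Jun in Het- against WT-labelled libraries. With the stress score as a term, those of Id1 to Id4 became -1.48, -1.65, -0.88 and -1.32 in Het- against WT-labelled libraries, those of Id2 and Id4 became -0.31 and -0.36 in KO- against WT-labelled libraries, those of Bmpr1a, Bmpr2, Id1, Id2 and Id3 became -0.21, -0.0128, -0.50, -0.56 and -0.21 in SmoM2- against WT-labelled libraries, Smad7 became -0.0664 in KO- against WT-labelled and Jun -1.20 in Het- against WT-labelled libraries, and Bmpr1a became 0.25 in KO- against Het-labelled libraries. With trends removed, Tcf4 became 0.0336 in KO- against WT-labelled, Bmp7 became -0.11 in Het- against WT-labelled, Bmpr1a and Smad5 -0.0183 and -0.0197 in SmoM2- against WT-labelled, and Smad5 and Id4 0.00924 and -0.0469 in KO- against Het-labelled libraries. With the totals implied by RPKM, Tcf3 became 0.0482 in KO- against WT-labelled, Bmpr1a became -0.0146 in SmoM2- against WT-labelled, and Bmpr1a and Smad4 0.0400 and 0.0594 in KO- against Het-labelled libraries. Leaving out single libraries turned Smad1 and Tcf3 in KO- against WT-labelled (-0.0690 to 0.683 and -0.135 to 0.0809); Bmp7, Id2 and Id4 in Het- against WT-labelled (-0.14 to 0.29, -0.24 to 0.45 and -0.38 to 0.68); Bmpr1a, Smad5, Id1, Id2, Id3 and Id4 in SmoM2- against WT-labelled (-0.0563 to 0.117, -0.0279 to 0.123, -0.15 to 0.97, -0.32 to 0.48, -0.0388 to 0.724 and -0.46 to 0.48); and Bmpr1a, Smad4 and Id4 in KO- against Het-labelled libraries (-0.31 to 0.18, -0.126 to 0.0778 and -0.14 to 0.79). Over all genes and alternatives, calls ran from 426 to 3829 in KO- against WT-labelled (main 3100), 20 to 4093 in Het- against WT-labelled (main 3403), 4 to 356 in SmoM2- against WT-labelled (main 30), 36 to 2217 in KO- against Het-labelled (main 1269) and 2423 to 4898 in KO- against SmoM2-labelled libraries (main 4372). Depth limits Id4 most, at 127 to 265 counts a library.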
